A study of Mus musculus with 5 samples.

Results

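The 10 genes that mark mast cells and are described here are Kit, Fcer1a, Ms4a2, Mrgprb1, Cpa3, Cma1, Mcpt4, Tpsb2, Tpsab1 and Hdc. They were chosen by name, and their probes were found through the RefSeq transcript that each non-control spot is listed for. Of the 10 genes, 9 had a probe, out of 21154 named genes with a probe. Tpsab1, a tryptase gene that the RefSeq table lists as a transcribed pseudogene, had no matching spot. The 9 genes were read by 11 probes on 12 spots per array. Of these 9 genes, 8 were well above background on all 5 arrays and entered the test across the whole array, while Ms4a2 passed on 1 array and was not tested. The sampled cells are labelled peritoneal macrophages. They were washed from the peritoneum, plated overnight and freed of floating cells before RNA was taken, and the RNA was read on 1-colour Agilent arrays.

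The first group was 2 mice labelled c-JunΔLysM, numbered 1 and 9, with the genotype given as floxed c-Jun on both alleles and 1 LysM-Cre allele; it is called c-Jun-deleted here. The other group was 3 wild-type mice, numbered 5, 11 and 14, which were littermate controls. All were 8 weeks old and of a 129/C57Bl6 background, and either sex was used. LysM-Cre is a recombinase expressed from the Lyz2 lysozyme gene, which is active in macrophages and neutrophils; whether it acted in mast cells was not measured. The source names of both c-Jun-deleted samples name another Cre line, Mx. Source names speak of numbered mice, so each array was taken as 1 animal. If the samples were not separate animals, then the p-values speak only of how these 5 samples vary, which may be technical.

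Levels are log2 of the processed signal relative to the 75th percentile of the same array, so 0 is that percentile and a positive value lies above it. The share of probes that cleared background ranged from 52.2% to 59.9% over the arrays. The arrays lay on 2 slides. Slide 1 carried c-Jun-deleted 1 and wild-type 5, and slide 2 carried c-Jun-deleted 9, wild-type 11 and wild-type 14. Each slide had 1 scan, so slide and scan cannot be told apart. Jun, the targeted gene, was at 2.76 and 2.71 in c-Jun-deleted samples and at 3.21, 3.75 and 3.17 in wild-type samples; the place of its probe within the gene was not read here, so it does not check the genotype. Sex-linked transcripts split wild-type 11 from the rest. Eif2s3y, a Y-linked gene, was at 3.27 there and not well above background on the other 4 arrays. All 10 listed macrophage markers, Adgre1 and Csf1r among them, passed the filter.

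Mast cells grow from progenitors and mature inside tissues under Kit ligand, the growth factor that binds the receptor Kit. Those of the peritoneal cavity belong to the connective tissue type, whose granules hold heparin, histamine and proteases. Antigen that cross-links IgE on the high-affinity IgE receptor empties the granules. GATA factors, Gata2 among them, are known to drive many of these genes.

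The RefSeq promoter windows of the members are shown to set their motifs beside their levels (assembly GRCm38.p6, 250 bases before the annotated start to 50 after, read 5′ to 3′ along the gene). Windows were found for 8 members; Tpsb2 and Tpsab1 were not in the table, and of the 2 windows listed for Kit the first was used. Capitals mark GATA words on either strand (AGATAA and AGATAG, as well as TGATAA and also TGATAG) and the AP-1 word TGANTCA, to which Jun and Fos dimers are known to bind.
Cpa3 (chr3:20242132-20242431, minus strand): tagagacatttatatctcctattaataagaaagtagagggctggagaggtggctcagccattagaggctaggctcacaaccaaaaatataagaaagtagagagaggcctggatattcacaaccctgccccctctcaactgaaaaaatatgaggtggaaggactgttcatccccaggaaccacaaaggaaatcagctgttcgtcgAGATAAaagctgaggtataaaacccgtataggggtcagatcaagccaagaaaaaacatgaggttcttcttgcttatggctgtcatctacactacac
Mcpt4 (chr14:56062261-56062560, minus strand): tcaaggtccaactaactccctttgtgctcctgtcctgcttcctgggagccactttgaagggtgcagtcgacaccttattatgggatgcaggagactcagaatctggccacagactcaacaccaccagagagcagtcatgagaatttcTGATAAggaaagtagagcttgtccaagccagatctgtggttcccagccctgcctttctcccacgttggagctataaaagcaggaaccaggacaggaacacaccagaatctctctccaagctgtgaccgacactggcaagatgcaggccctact
Cma1 (chr14:55944626-55944925, minus strand): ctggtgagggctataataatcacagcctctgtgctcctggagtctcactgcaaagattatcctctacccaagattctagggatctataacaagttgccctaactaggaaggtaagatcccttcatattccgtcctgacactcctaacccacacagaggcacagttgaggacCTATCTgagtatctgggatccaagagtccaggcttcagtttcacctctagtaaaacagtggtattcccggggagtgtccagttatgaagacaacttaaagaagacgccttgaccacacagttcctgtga
Fcer1a (chr1:173227180-173227479, minus strand): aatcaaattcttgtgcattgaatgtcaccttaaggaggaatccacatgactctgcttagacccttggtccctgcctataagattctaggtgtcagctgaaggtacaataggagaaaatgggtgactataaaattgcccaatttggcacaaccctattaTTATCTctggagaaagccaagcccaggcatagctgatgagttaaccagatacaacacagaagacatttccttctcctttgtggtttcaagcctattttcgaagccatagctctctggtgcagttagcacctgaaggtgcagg
Ms4a2 (chr19:11623670-11623969, minus strand): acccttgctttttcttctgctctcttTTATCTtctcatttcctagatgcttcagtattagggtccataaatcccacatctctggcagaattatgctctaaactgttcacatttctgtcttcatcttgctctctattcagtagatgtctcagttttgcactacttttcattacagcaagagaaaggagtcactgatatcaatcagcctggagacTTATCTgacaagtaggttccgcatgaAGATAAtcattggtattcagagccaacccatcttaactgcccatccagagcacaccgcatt
Hdc (chr2:126618629-126618928, minus strand): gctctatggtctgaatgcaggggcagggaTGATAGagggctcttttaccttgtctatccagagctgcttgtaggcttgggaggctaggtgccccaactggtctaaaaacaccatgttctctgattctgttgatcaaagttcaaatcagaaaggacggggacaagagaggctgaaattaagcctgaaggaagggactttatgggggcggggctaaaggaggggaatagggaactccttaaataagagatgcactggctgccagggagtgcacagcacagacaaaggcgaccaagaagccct
Mrgprb1 (chr7:48456293-48456592, minus strand): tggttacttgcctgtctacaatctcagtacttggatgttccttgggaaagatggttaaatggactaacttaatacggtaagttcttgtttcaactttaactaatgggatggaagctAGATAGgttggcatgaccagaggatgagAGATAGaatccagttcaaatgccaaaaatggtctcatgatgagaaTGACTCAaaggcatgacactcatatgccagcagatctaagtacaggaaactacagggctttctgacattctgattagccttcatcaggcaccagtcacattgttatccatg
Kit (chr5:75574737-75575036, plus strand): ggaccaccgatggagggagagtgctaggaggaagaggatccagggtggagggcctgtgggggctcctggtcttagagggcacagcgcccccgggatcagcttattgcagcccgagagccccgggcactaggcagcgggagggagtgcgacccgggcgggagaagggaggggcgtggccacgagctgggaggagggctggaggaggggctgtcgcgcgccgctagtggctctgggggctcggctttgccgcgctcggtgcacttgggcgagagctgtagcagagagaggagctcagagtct
A GATA word lay in 7 of the 8 member windows, against 29.8% of 32817 windows of the same length. It began 46 bases before the start in Cpa3, 79 in Cma1, 92 in Fcer1a, 103 in Mcpt4 and 221 in Hdc. Ms4a2 had 3 such words and Mrgprb1 had 2. The Kit window had none. The AP-1 word lay in 1 of the 8 windows, that of Mrgprb1, where it began 61 bases before the start; it lay in 7.81% of all windows. The E-box word CANNTG lay in 6 of 8 member windows and in 72.3% of all. CATGTG, or CACATG on the other strand, is 1 of the E-box words, and it lay in 1 of 8 member windows (Fcer1a) and in 14.2% of all. These matches describe letters in a window and say nothing of binding.

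The first question was whether mast cell genes differed between c-Jun-deleted and wild-type samples. All 8 tested members had a higher mean in c-Jun-deleted samples, by a median of 0.50 on the log2 scale, but for none of them did the groups separate, and none passed the test. For Cpa3, Cma1, Mcpt4, Tpsb2 and Fcer1a both the highest and the lowest of the 5 arrays were wild-type: wild-type 5 was highest and wild-type 14 lowest. The gap between these 2 wild-type mice reached 4.73-fold for Mcpt4, while the difference between the genotypes was 1.25-fold. Over all 27979 genes tested the median difference was -0.09, and 38.6% had a higher mean in c-Jun-deleted samples.

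**Figure D1:**
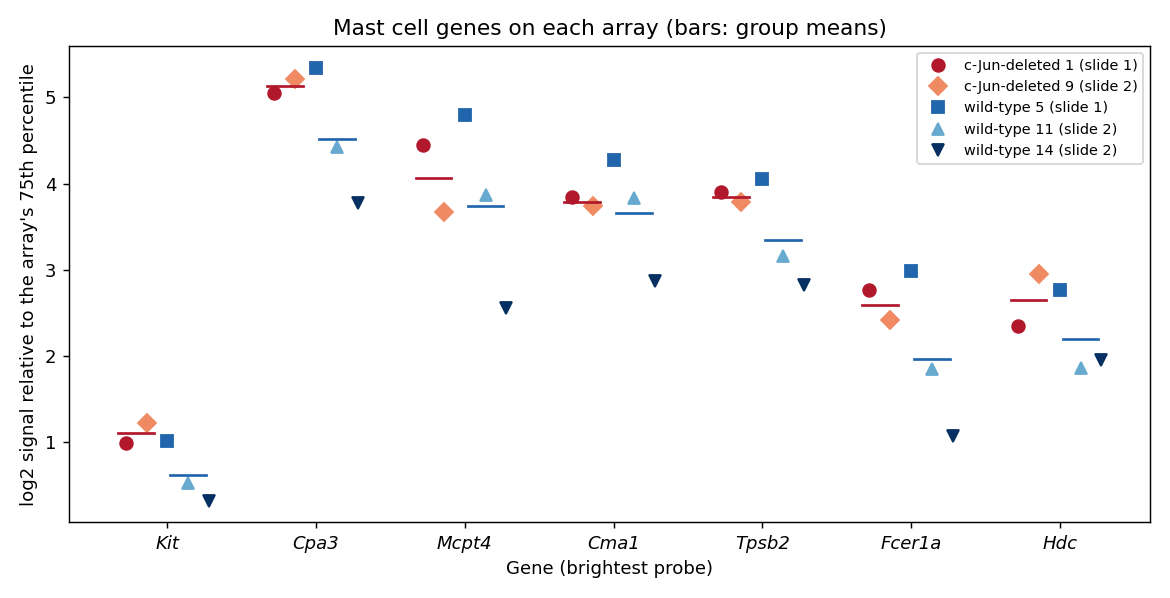
Level of 7 mast cell genes on each array, as log2 signal relative to the array's 75th percentile (vertical axis), by gene (horizontal axis). Each point is 1 array, with c-Jun-deleted arrays in red and orange left of wild-type arrays in blue; horizontal bars are group means. Within each gene the c-Jun-deleted points lie inside or across the wild-type range, which runs from wild-type 14 to wild-type 5 for all but Hdc, where wild-type 11 is lowest.

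Kit encodes the receptor for Kit ligand on which mast cells depend. It was at 0.99 and 1.23 on c-Jun-deleted 1 and 9, against 1.01, 0.52 and 0.32 on wild-type 5, 11 and 14. Wild-type 5 lay between both c-Jun-deleted arrays, and the other wild-type arrays lay below them. The difference was 0.49 (SE 0.26, 95% interval -0.17 to 1.16; limma adjusted p = 0.486). Kit was the only member read by 2 spots of 1 probe, and these duplicate spots differed by 0.01 to 0.08 on the 5 arrays, which is technical spread within an array.

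Fcer1a encodes the IgE-binding chain of the high-affinity IgE receptor. It was at 2.77 and 2.42 in c-Jun-deleted samples, and at 2.98, 1.85 and 1.08 in wild-type samples. Both c-Jun-deleted values lay inside the wild-type range, whose ends were 3.75-fold apart. The difference was 0.62 (SE 0.59, 95% interval -0.91 to 2.16; limma adjusted p = 0.676).

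Ms4a2 encodes the beta chain of the same receptor. Its probe was dim, with -4.33 and -4.27 on the c-Jun-deleted arrays, and it was well above background on 1 of these 2 (c-Jun-deleted 1) and on 0 of the 3 wild-type arrays. Its measured mean was -4.30 in c-Jun-deleted samples and -5.54 in wild-type samples. Since c-Jun-deleted 9 did not read it well above background, no size of difference is given. No test was made of it, since the filter asked for 2 arrays. Where a fold is given below as a lower bound, each array's lowest signal well above background replaces a dimmer reading. Such a bound is approximate, since a reading above that signal can still fail. Ms4a2 did so on c-Jun-deleted 9 (signal 22.7 against 19.1).

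The granule proteases came next. Cpa3, the mast cell carboxypeptidase, was at 5.06 and 5.21 in c-Jun-deleted samples, against 5.35, 4.42 and 3.78 in wild-type samples. Both c-Jun-deleted arrays lay just under wild-type 5 and above the other wild-type arrays. The difference was 0.62 (SE 0.48, 95% interval -0.64 to 1.87; limma adjusted p = 0.617).

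Tpsb2 encodes a tryptase that is stored bound to heparin. Its brighter probe was at 3.90 and 3.79 in c-Jun-deleted samples and at 4.05, 3.16 and 2.82 in wild-type samples. Its other probe was at 3.49 and 3.29 in c-Jun-deleted samples and at 3.73, 2.77 and 2.52 in wild-type samples. Both probes put the arrays in the same order, with wild-type 5 highest, then c-Jun-deleted 1, c-Jun-deleted 9, wild-type 11 and wild-type 14. The difference for the brighter probe was 0.50 (SE 0.40, 95% interval -0.54 to 1.53; limma adjusted p = 0.622), and with every probe tested that of the other probe was 0.38.

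Cma1 and Mcpt4 encode chymases, the chymotrypsin-like proteases of connective tissue mast cells. Cma1 was at 3.85 and 3.74 in c-Jun-deleted samples, against 4.28, 3.83 and 2.87 in wild-type samples. Mcpt4 was at 4.45 and 3.67 in c-Jun-deleted samples, against 4.80, 3.86 and 2.56 in wild-type samples. In both genes c-Jun-deleted 9 lay below wild-type 11, which no other tested member showed. The difference was 0.13 for Cma1 (SE 0.44, 95% interval -1.02 to 1.29; limma adjusted p = 0.917) and 0.32 for Mcpt4 (SE 0.71, 95% interval -1.54 to 2.18; limma adjusted p = 0.873). These signs rest on wild-type 14: without it the differences were -0.26 and -0.27. The Mcpt4 difference was also -0.07 without c-Jun-deleted 1, and with array weights those of Cma1 and Mcpt4 were -0.14 and -0.16.

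Hdc encodes histidine decarboxylase, which makes histamine. It was at 2.34 and 2.95 in c-Jun-deleted samples and at 2.77, 1.86 and 1.95 in wild-type samples. The highest value was that of c-Jun-deleted 9, while c-Jun-deleted 1 lay below wild-type 5. The difference was 0.46 (SE 0.37, 95% interval -0.50 to 1.42; limma adjusted p = 0.627).

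Mrgprb1 encodes a receptor of the Mas-related family. Its brighter probe read -0.41 on the array of c-Jun-deleted 1 and 8.61 on that of c-Jun-deleted 9, against -0.14, -1.06 and -1.99 on wild-type 5, 11 and 14. The spot on c-Jun-deleted 9 lay 431-fold above the next highest array, with no outlier or saturation flag. The other Mrgprb1 probe was at -5.45 and -5.98 in c-Jun-deleted samples and at -6.41, -5.79 and -6.22 in wild-type samples, and it was well above background on c-Jun-deleted 1 alone. Mrgprb2, the mast cell receptor for basic secretagogues in mice, was at -1.06 and -0.68 in c-Jun-deleted samples and at -0.94, -1.51 and -2.01 in wild-type samples. Mrgprb3 was at -2.39 and -1.99 in c-Jun-deleted samples, against -2.12, -3.24 and -4.15 in wild-type samples, so neither relative was raised in this way on c-Jun-deleted 9.

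**Figure D2:**
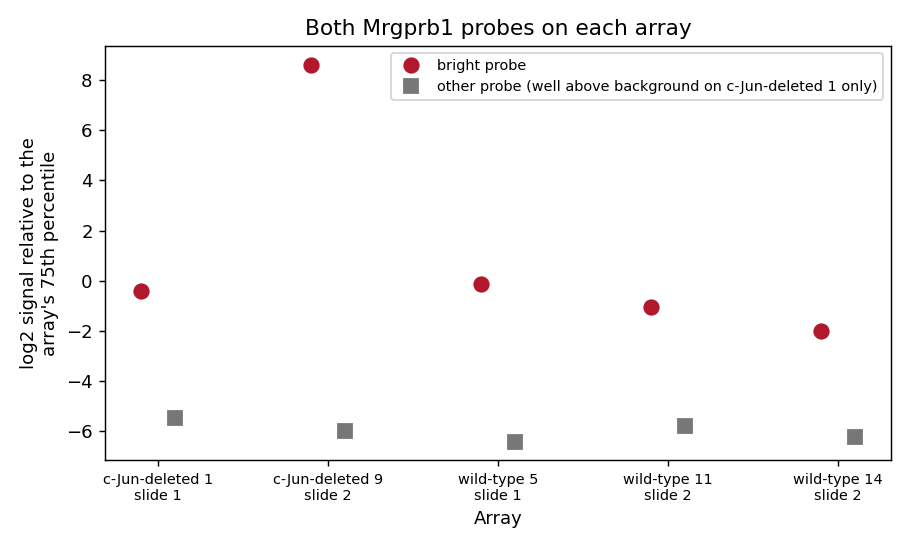
Both Mrgprb1 probes on each array, as log2 signal relative to the array's 75th percentile (vertical axis), by array (horizontal axis). Each point is 1 probe on 1 array; the bright probe stands at 8.61 on c-Jun-deleted 9 and between -1.99 and -0.14 on the other arrays, while the other probe stays between -6.41 and -5.45.

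The fitted Mrgprb1 difference of 5.16 (SE 2.72, 95% interval -1.90 to 12.2; limma adjusted p = 0.489) rests on that 1 spot, and it was 0.65 without c-Jun-deleted 9. The spots beside it on the same array, for Rpl24, Apoe and 6 other probes, were at most 0.02 above their highest value on the other arrays, and those for Apoe and Rpl24 were bright on every array. Spots that exceeded all other arrays by at least 6 on the log2 scale numbered 1 and 23 on c-Jun-deleted 1 and 9 and 1, 32 and 9 on wild-type 5, 11 and 14, of 59305 non-control spots. Mrgprb1 is left out of the summaries below that give 7 members. The median difference was 0.50 with it and 0.49 without it.

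The limma fit over the whole array called 0.0% of genes at an adjusted p below 0.05 (0 of 27979), and 0 of the 8 members. At an unadjusted p below 0.05 there were 12.1% of all genes and 0 of the 8 members. Both c-Jun-deleted arrays lay above the wild-type range for 13.3% of all genes and below it for 20.2%, against 0 of 8 and 0 of 8 members. With 2 and 3 arrays the smallest p of an exact permutation test is 0.1, and single genes were not tested that way. The 95% intervals of the 7 members leave room for a 2-fold difference in the higher direction for each of them, since their upper ends lay between 1.16 and 2.18.

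The size of the members' median, 0.50, moved most when wild-type 5 or wild-type 14 was left out. Leaving out c-Jun-deleted 1 gave 0.53 and leaving out c-Jun-deleted 9 gave 0.55. The median dropped to 0.24 when wild-type 14 was left out, was 0.43 when wild-type 11 was, and reached 0.85 when wild-type 5 was. Array weights gave 0.16.

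The comparison differed between the slides. Within slide 1, all 8 members were lower on c-Jun-deleted 1 than on wild-type 5, by 0.02 (Kit) to 0.43 (Cma1) on the log2 scale; 61.4% of all genes were lower there. Within slide 2, c-Jun-deleted 9 lay above both wild-type arrays for 6 of 8 members, against 30.7% of all genes. The exceptions were the chymase genes Cma1 and Mcpt4, where it lay between them. The median difference of the members was -0.28 within slide 1 and 0.88 within slide 2, against -0.10 and -0.07 over all genes. Slide 1 rests on 1 array against 1 and has no test. With the slide as a block the median was 0.43.

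**Figure D3:**
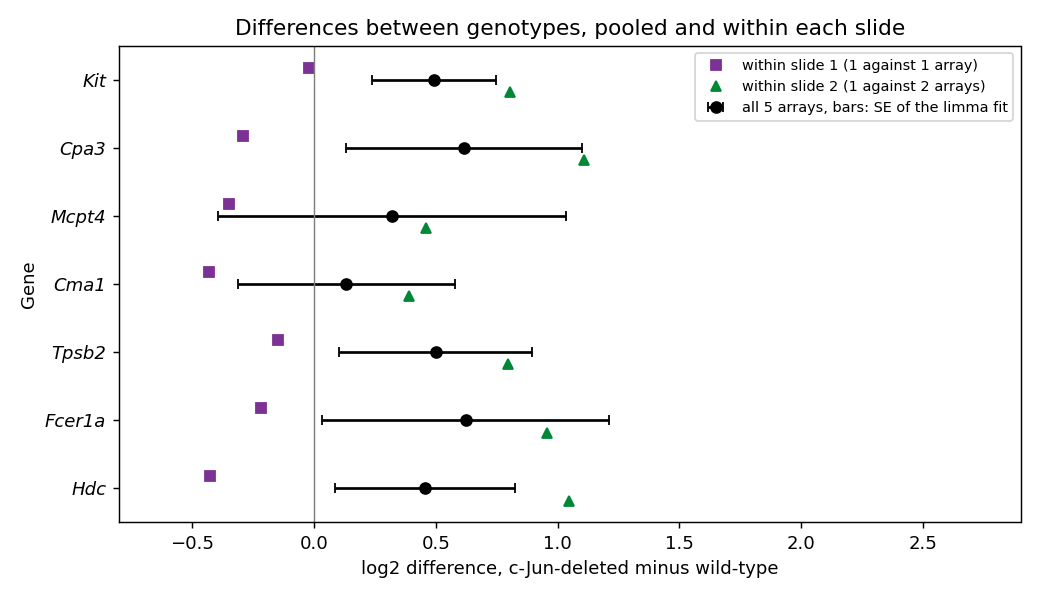
Log2 difference, c-Jun-deleted minus wild-type (horizontal axis), for 7 mast cell genes (vertical axis). Black points are the fit over all 5 arrays with its SE as bars, purple squares are c-Jun-deleted 1 minus wild-type 5 on slide 1, and green triangles are c-Jun-deleted 9 minus the mean of wild-type 11 and 14 on slide 2. All 7 squares lie below 0 and all 7 triangles above it.

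Slide 2 minus slide 1 in the same fit was negative for the 7 members, from -0.24 for Hdc and for Kit to -1.24 for Mcpt4 (SE 0.51). None passed (limma adjusted p = 1), and 0 of all genes did. Among wild-type mice alone, wild-type 5 on slide 1 lay above both slide 2 arrays for 8 of 8 members, against 32.1% of all genes. Wild-type 14 was the lowest of the 5 arrays for 7 of 8 members, against 21.2% of all genes, and wild-type 5 was the highest for 5 of 8, against 19.9%. With 1 wild-type array on slide 1, mouse and slide cannot be told apart in this contrast.

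The next question was how alike the members were across the 5 arrays. Each gene was centred on its own mean over the arrays. The 7 members then averaged 0.30 and 0.24 on c-Jun-deleted 1 and 9, and 0.56, -0.26 and -0.85 on wild-type 5, 11 and 14. All 7 were above their own mean on wild-type 5, by 0.20 (Kit) to 0.93 (Mcpt4), and below it on wild-type 14, by 0.42 (Hdc) to 1.31 (Mcpt4). In bulk samples fewer mast cells and less RNA of these genes per cell cannot be told apart.

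**Figure D4:**
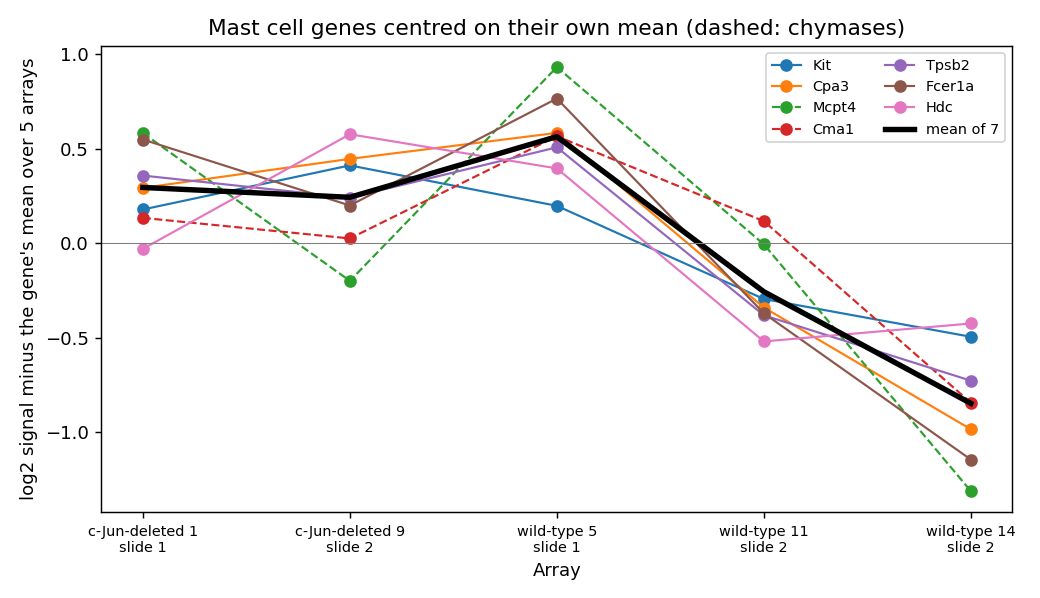
The 7 mast cell genes centred on their own mean over the 5 arrays, in log2 units (vertical axis), by array (horizontal axis). Thin lines join the values of 1 gene, dashed for the chymase genes, and the thick black line is their mean; the arrays have no order. All 7 genes are above 0 on wild-type 5 and below it on wild-type 14, and on c-Jun-deleted 9 they run from -0.20 for Mcpt4 to 0.58 for Hdc.

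Not all members kept to this common profile equally. The root mean square gap of a gene from the mean of the other 6 members, over 5 arrays, was 0.10 for Tpsb2 and 0.14 for Cpa3. It was 0.24 for Fcer1a and for Cma1, 0.29 for Kit, 0.37 for Hdc and 0.43 for Mcpt4. Hdc and Mcpt4 lay on opposite sides of the mean of the 7 members on c-Jun-deleted 9, where Hdc was at 0.58 and Mcpt4 at -0.20 relative to their own means, and on wild-type 14, where Hdc was at -0.42 and Mcpt4 at -1.31. Their spread over the arrays also differed: Mcpt4 covered 2.24, Fcer1a 1.91, Cpa3 1.57, Cma1 1.41, Tpsb2 1.23 and Kit 0.91. Feature Extraction gave the spots of the tested members an error of 10% to 10.5% of the signal. This assigned error is nearly the same for all of them, so it does not measure the spread between arrays.

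Among 3040 other named genes that were well above background on all 5 arrays and varied by at least 1, the 10 closest to the mean of the 7 members were Klk8, Gata2, Gpr141b, Maob, Il1rl1, Kcne3, Il4, Atp8b5, Ednra and Gapt. The leading gene, Klk8, a kallikrein-related protease, had a root mean square gap of 0.04 over the 5 arrays. Gata2, a transcription factor of mast cells and blood progenitors, had a gap of 0.07. It was at 0.14 and 0.12 in c-Jun-deleted samples and at 0.28, -0.56 and -1.08 in wild-type samples. Il1rl1 encodes the receptor for interleukin 33, to which mast cells respond, and its gap was 0.09. It was at 3.62 and 3.56 in c-Jun-deleted samples, against 3.85, 3.02 and 2.67 in wild-type samples. Maob, a monoamine oxidase, had a gap of 0.08, and Il4, which encodes interleukin 4, one of 0.11. With Mrgprb1 kept in the mean of 8 members, its single bright spot set the profile and the 10 closest genes were others, led by Rnf122 (gap 0.15), Nedd4 (0.18) and Nfe2 (0.21). The profile without Mrgprb1 was chosen after the data were seen, and closeness over 5 arrays is a description.

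**Figure D5:**
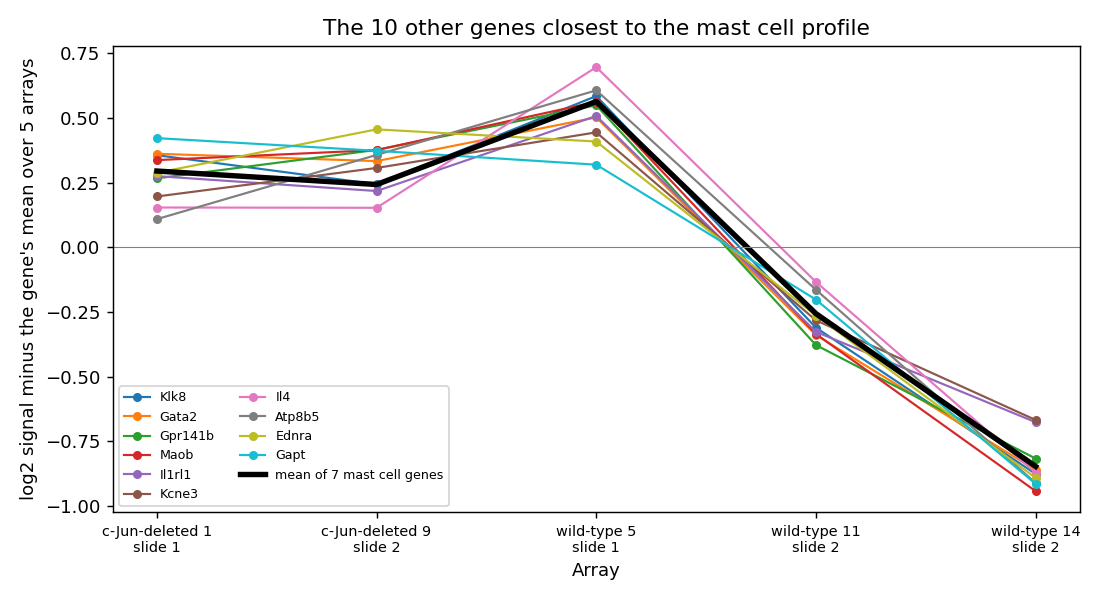
The 10 named genes closest to the mean of 7 mast cell genes, each centred on its own mean over the 5 arrays, in log2 units (vertical axis), by array (horizontal axis). Thin lines join the values of 1 gene and the thick black line is the mast cell mean; the arrays have no order. All 10 genes are above 0 on wild-type 5 and below 0 on wild-type 11 and wild-type 14.

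Other genes of mast cell biology were read from fixed lists, and no gene of these lists passed the test over all genes. Among other granule proteases 7 of 10 were tested, 3 higher and 4 lower in c-Jun-deleted samples, with a median difference of -0.01. Cma2, a further chymase gene, was at 3.46 and 2.72 in c-Jun-deleted samples and at 3.70, 2.98 and 1.66 in wild-type samples, so c-Jun-deleted 9 again lay below wild-type 11. Tpsg1, the gamma tryptase gene, was at 0.22 and -0.06 in c-Jun-deleted samples and at 0.32, -0.60 and -1.45 in wild-type samples. Both had wild-type 5 highest and wild-type 14 lowest, as the 5 members named above did. Mcpt9 was at -6.27 and -5.95 in c-Jun-deleted samples and at -2.59, -4.20 and -4.76 in wild-type samples (limma adjusted p = 0.334). It cleared background on 0 of 2 c-Jun-deleted arrays and on 2 of 3 wild-type arrays, so no size is given. Mcpt2, a chymase of mucosal mast cells, was well above background on both c-Jun-deleted arrays and on 0 of 3 wild-type arrays. It was at -4.69 and -3.68 in c-Jun-deleted samples and at -4.75, -5.27 and -5.05 in wild-type samples. By the approximate bound described for dim readings, its mean was at least 1.58-fold higher in c-Jun-deleted samples (limma adjusted p = 0.433). That bound rests on c-Jun-deleted 9, since c-Jun-deleted 1 lay close to wild-type 5. Gzmb, a granzyme of cytotoxic lymphocytes, was at -5.12 and -4.83 in c-Jun-deleted samples, against -4.57, 1.40 and -3.17 in wild-type samples, and was well above background on 1 of 2 and 2 of 3 of these arrays.

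Of 14 genes for granule proteoglycan and amine handling, 8 were higher and 6 lower in c-Jun-deleted samples, with a median difference of 0.29. Slc18a2, the vesicular transporter that loads amines into granules, was at 0.13 and 0.21 in c-Jun-deleted samples and at 0.21, -0.24 and -0.77 in wild-type samples. Tph1, which starts serotonin synthesis, was at 3.15 and 2.84 in c-Jun-deleted samples and at 3.04, 1.87 and 2.23 in wild-type samples. The groups did not overlap and the means differed by at least 1 for Slc22a3, an organic cation transporter (3.66; limma adjusted p = 0.293), and Ddc, the aromatic amino acid decarboxylase (1.16; limma adjusted p = 0.353). Of the 3 wild-type arrays, 1 read Slc22a3 well above background and 2 read Ddc so, which leaves both sizes uncertain. Ext1, a heparan sulphate polymerase, was lowest in the list at -0.34. Groups did not overlap for 33.5% of all genes.

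Among 13 tested surface receptors, 5 were higher and 8 lower in c-Jun-deleted samples, with a median of -0.14. Il9r, the interleukin 9 receptor, differed by 3.24 without overlap (limma adjusted p = 0.243) and was well above background on both c-Jun-deleted arrays and on 2 of 3 wild-type arrays. At the other end Csf2rb2 was at -0.55. The 7 eicosanoid enzymes had a median of -0.03, from -0.98 for Ltc4s, the leukotriene C4 synthase, to 0.82 for Hpgds, the haematopoietic prostaglandin D synthase. The 11 transcription factors had a median of -0.02, from -0.49 for Spi1 to 0.58 for Gata2. Gata1, its relative, was at -1.30 and -1.13 in c-Jun-deleted samples and at -0.57, -1.62 and -2.39 in wild-type samples.

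The 20 genes of IgE receptor signalling had a median of 0.23 with 15 higher and 5 lower. They ran from -0.92 for Gab2, a docking adaptor, to 1.77 for Grap2, an adaptor also used by T cells. Fcer1g, the signalling chain of the IgE receptor that macrophage Fc receptors also use, was at 7.62 and 7.25 in c-Jun-deleted samples, against 7.92, 7.77 and 8.21 in wild-type samples. It was lower without overlap and did not follow Fcer1a between arrays. The 14 genes of Kit ligand and Kit signalling had a median of -0.04, from -0.85 for Spred1 to 0.14 for Pik3r1. The 10 tested genes of exocytosis had a median of -0.08, from -0.52 for Vamp8 to 1.38 for Mlph.

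Markers of other cells were read beside the members. Mcpt8, the defining protease of basophils, and Mcpt1, a protease of mucosal mast cells, were not well above background on any array. Among basophil markers 5 of 7 were tested, with a mean level of -0.78 and -1.29 in c-Jun-deleted samples and of -0.44, -0.43 and -1.32 in wild-type samples. Of these 5, 1 was higher in c-Jun-deleted samples (Il4, by 0.26) and 4 were lower, with a median difference of -0.12. Il13 was at -4.38 and -6.25 in c-Jun-deleted samples and at -3.79, -3.36 and -4.47 in wild-type samples, but c-Jun-deleted 9 did not read it well above background, so no size is given. Of the 4 mucosal mast cell markers, 2 were tested, Mcpt2 and the integrin gene Itgb7, which differed by 1.47 without overlap (limma adjusted p = 0.449). Eosinophil markers had 6 of 8 tested, and Prg2 and Epx, which encode their granule proteins, were not well above background on any array. The mean of the 6 was -0.65 and -0.24 in c-Jun-deleted samples and -0.0029, -0.28 and -1.37 in wild-type samples. This mean was highest on wild-type 5 and lowest on wild-type 14, as Ccr3 and Siglecf were. The other markers did not share the high end, since Ear1, Ear2 and Ear6 were highest on wild-type 11. Ear1 (-1.33) and Ear2 (0.80) were also lowest on wild-type 14, while Ear6 was lowest on c-Jun-deleted 1 (-3.66). Il5ra, the interleukin 5 receptor chain, was highest on c-Jun-deleted 9 and lowest on wild-type 14. It was at 1.65 and 2.60 in c-Jun-deleted samples and at 0.43, 0.16 and 0.05 in wild-type samples (limma adjusted p = 0.224). The part of eosinophil RNA in the members' pattern was not tested.

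B cell markers were higher in both c-Jun-deleted samples. All 9 were tested and all 9 lay above the wild-type range, as 13.3% of all genes did, but 0 of 9 passed the test (limma adjusted p from 0.218 to 0.421). They had a mean level of 2.28 and 2.69 in c-Jun-deleted samples and of 0.57, 0.55 and -0.40 in wild-type samples. T and NK cell markers (9 of 9 tested) had means of -0.34 and 0.02 in c-Jun-deleted samples, against -1.03, 0.99 and -1.08 in wild-type samples. Mesothelial and stromal markers (8 of 10) had means of -2.99 and -2.63 in c-Jun-deleted samples, against -2.59, -1.03 and -1.70 in wild-type samples. Macrophage markers (10 of 10) had means of 5.30 and 5.64 in c-Jun-deleted samples and of 5.77, 4.97 and 5.67 in wild-type samples, so their mean was not low on wild-type 14. Single macrophage markers varied there: Itgam and Icam2 were lowest on wild-type 14, while Cd14, Csf1r, Mertk and Lyz2 were highest on it. Lyz2, whose locus drives the Cre, had levels of 4.46 and 8.52 in c-Jun-deleted samples and of 8.70, 8.76 and 9.18 in wild-type samples, so c-Jun-deleted 1 stood apart from the other 4 arrays (limma adjusted p = 0.479). Erythroid markers (7 of 9 with a probe, 5 of them globins) had means of -1.59 and -0.78 in c-Jun-deleted samples, against -3.66, -4.21 and -4.61 in wild-type samples. All 5 globins lay above the wild-type range, and Hbb-b1 and Hbb-b2 were read well above background by 0 of 3 wild-type arrays. The other tested erythroid markers, Car1 and Slc4a1, lay below that range. Car1 differed by -0.064, with an SE of 0.13. Slc4a1 cleared background on 1 of 2 c-Jun-deleted and 2 of 3 wild-type arrays, so no size is given. Neutrophil (8 of 9) and dendritic cell markers (6 of 7) had median differences of -0.21 and 0.08. In the neutrophil, mesothelial and dendritic cell lists, the genes whose groups did not overlap and whose means differed by at least 1 were Mmp8 (1.11) and, lower in c-Jun-deleted samples, Mpo (-2.55), Msln (-1.63), Wt1 (-1.47), Krt19 (-1.39) and Itgax (-1.04). No gene of these cell type lists passed the test. A low wild-type 14 was not particular to the members. The mean of the B cell, T and NK cell, erythroid, basophil, eosinophil, mucosal mast cell and dendritic cell lists was also lowest there. For basophil markers the margin was small, at -1.32 against -1.29 on c-Jun-deleted 9. The means of the macrophage, neutrophil and mesothelial lists were lowest on other arrays. The part of these cells in the mast cell values was not tested.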

How the data were processed

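RNA of 5 samples was read on 1-colour Agilent arrays. Per the file headers, the authors' deposited intensity values came from Feature Extraction 11.5.1.1, which had already subtracted background within each array. The deposited files also hold flags, an other kind of value, that mark a spot as well above background, as saturated or as an outlier. The array design used mm9, so no array coordinates are given. The deposited table of group means held no probe of these genes and was not used.

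Control spots (of 62976 spots, 59305 remained) and outlier-flagged spots were left out, and spots of 1 probe were averaged. Log2 processed signal minus the log2 75th percentile of the array was fitted on genotype alone with limma 3.58.1 (R 4.3.3), using moderated 2-sided tests. A probe entered if 2 or more of the 5 arrays read it well above background. A named gene was its brightest probe; symbols came from RefSeq transcripts of GRCm38.p6 (28026 of 55681 probes, 21154 symbols). P-values were Benjamini-Hochberg adjusted over 27979 genes, with a threshold of 0.05. Intervals are those of the fit. The step was tested on simulated data. The number of arrays limits the precision.

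The alternatives were other scalings, normexp (offset 50, on the median spot signal, since no mean signal column is in the files), filters, outlier spots kept, every probe tested, slide, array weights, the mouse numbers of the source names as a block, and each array left out. Genes named from other lists had groups that did not overlap with a difference of at least 1, or stood at either end of their list; further genes named for their function or to set beside a member (Cma2, Tpsg1, Slc18a2, Tph1, Gata1, Fcer1g, Mrgprb2, Mrgprb3) were chosen after their values were seen. Members and lists were chosen with earlier results of these data known.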

Additional observations from a re-analysis of the deposited data

How the results depend on the processing

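Under the 20 alternatives run for each of Kit, Cpa3, Mcpt4, Cma1, Tpsb2, Fcer1a and Hdc, and the 19 for Mrgprb1, no member passed the threshold; limma's adjusted p ranged from 0.32 to 0.999. The sign turned within slide 1 for all 8 members, at -0.019 for Kit, -0.29 for Cpa3, -0.35 for Mcpt4, -0.43 for Cma1, -0.15 for Tpsb2, -0.22 for Fcer1a, -0.43 for Hdc and -0.27 for Mrgprb1; the cause was not tested. For Mcpt4 and Cma1 it also turned with array weights (-0.16 and -0.14) and without wild-type 14 (-0.27 and -0.26). For Mcpt4 it turned without c-Jun-deleted 1 as well (-0.07). The replicate block by source-name number gave the same -0.27 and -0.26 and is no separate check. Wild-type 14 alone has number 4, so it drops out of the genotype estimate under that block. Leaving out 1 array at a time, Cma1 ranged from -0.26 to 0.44 and Mcpt4 from -0.27 to 0.85. With 1 array left out, the median over the members ranged from 0.24 to 0.85, their number above the wild-type range from 0 to 6 (0 in the main setting), and the number below it stayed 0. That number above was 3 with median centring, 1 with either normexp setting, 1 without the filter on dim probes (Ms4a2 joins there) and 6 within slide 2; within slide 1, with 1 array on each side, 8 lay below, and the median was -0.28. Genes past the threshold numbered 178 with median centring, which moved the median over all genes to 0.12 against -0.09, and 1 with array weights, none of them a member. The source names repeat mouse numbers 1 and 2 in both groups. Under the replicate block the members' median was 0.24, as without wild-type 14, and 0 genes passed. Deviations from the group means correlated at -0.07 and 0.19 across genes between same-numbered mice. With 2 c-Jun-deleted arrays, the deviations of 1 mirror those of the other, so these values cannot decide whether the numbers pair the samples. The main fit did not use the numbers. Dim probes (Ms4a2 and the other Mrgprb1 probe) limit what can be said of those genes.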
